A study of Homo sapiens with 9 samples.

Results

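The long noncoding RNAs that MDA-MB-231 cells expressed were followed under 2-deoxy-D-glucose (2-DG). They were selected on their names and levels, as the rows whose gene name is LINC with a number, the systematic name of a long intergenic noncoding RNA, or ends in -AS with a number, the name of an RNA transcribed antisense to the gene named before it, with a mean of at least 1 FPKM over the 9 libraries. FPKM is the number of fragments per kilobase of gene, scaled to the total counted in the library. Of 3827 rows with such a name, 143 met this level, 35 of them LINC RNAs and 108 antisense RNAs, out of 61552 genes in all. The level they were chosen by is therefore a description here and was not tested. MDA-MB-231 is an established human triple-negative breast cancer line, so all libraries come from 1 line. Cells were kept for 24 h with 0 mM 2-DG (control, which received phosphate-buffered saline), with 10 mM 2-DG or with 20 mM 2-DG, and each group had 3 libraries. Cells import this glucose analogue and phosphorylate it but cannot use it further, so that glycolysis is blocked, and the design asks what changes when glycolysis is held back at 2 doses.

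Long noncoding RNAs are transcribed, capped and mostly spliced like messenger RNAs but are not translated into a known protein. Many antisense RNAs start beside the promoter of a protein-coding gene and run away from it, so that both transcripts share an open stretch of chromatin, while others lie across the gene on the opposite strand. Most are made at low levels and are removed quickly, in the nucleus by the RNA exosome and in the cytoplasm partly by nonsense-mediated decay (NMD), which degrades transcripts whose short reading frames end early.

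The total counted on genes, recovered from the FPKM values, was between 30974968 and 40843638 per library, so 1 read on a gene of 1 kb was worth between 0.0245 and 0.0323 FPKM. Replicates of a group had Pearson correlations of 0.989 to 0.996. The labels do not say whether the 3 libraries of a group came from separate cultures, so p-values measure only the spread between them. The mesenchymal markers VIM (mean 285 FPKM in the control), AXL and CD44 were abundant and EGFR was detected, with CD44 called lower (69.8 to 56.6 FPKM at 20 mM) and EGFR higher (14 to 26 FPKM), whereas SPARC, also listed as a marker of the line, had a control mean of 0.0774 FPKM. ESR1 and PGR, the hormone receptors that define other breast cancers, had means of at most 0.014 FPKM in any group, while the epithelial marker EPCAM was detected at 2.85 to 3.75 FPKM and CDH1 fell from 0.365 FPKM to 0.0493 FPKM at 10 mM and 0.0686 FPKM at 20 mM, and of 7 markers of blood, vessel and liver cells only PECAM1 exceeded a mean of 0.1 FPKM in a group, with means of 1.72 FPKM in the control and 0.914 FPKM at 20 mM. In RNA from whole cultures, fewer cells that make an RNA and less of it per cell cannot be told apart.

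The 143 RNAs were mostly scarce. Their median level was 1.78 FPKM, 84 lay under 2 FPKM, 17 exceeded 5 FPKM and 2 exceeded 10 FPKM. The median RNA rested on 175 reads per library, but 6 RNAs fell under 10 reads in at least 1 library. All 143 passed the filter on low values, which asked for the equivalent of 10 reads in 3 or more libraries. In GENCODE release 29, 85 were annotated as antisense, 33 as lincRNA and 15 as processed transcript, while 5 were transcribed unprocessed pseudogenes. The 2 that carried a protein-coding label there, LINC02693 (named C17orf51) and KRT10-AS1 (named TMEM99), are not clearly noncoding. The antisense RNA lay above the gene it is named after in 41 of 108 cases, and 11 of those genes had means under 0.1 FPKM.

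At the edge of the level, IGFL2-AS1 was just inside with group means of 0.415 FPKM in the control, 1.35 FPKM at 10 mM and 1.24 FPKM at 20 mM. SYNPR-AS1 (1.10, 0.889 and 1.02 FPKM) and PRR7-AS1 (0.841, 1.16 and 1.06 FPKM) followed. Just outside were PITPNA-AS1 (1.10, 1.07 and 0.809 FPKM), LINC00705 (1.09, 0.782 and 1.11 FPKM) and TNFRSF10A-AS1 (1.03, 1.33 and 0.610 FPKM). The group means of 23 RNAs were under 1 FPKM in the control and at least 1 FPKM at both doses, and the reverse held for 4, so the level let in more RNAs through the treated groups than through the control.

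The most abundant member was LINC00973, a 2-exon lincRNA. Its 3 control libraries held 22.5, 22.8 and 26.9 FPKM, the 10 mM libraries 34.6, 34.9 and 32.7 FPKM and the 20 mM libraries 38.0, 38.8 and 38.6 FPKM. The groups did not overlap, and LINC00973 rose by 0.49 ± 0.07 (SE) at 10 mM and 0.66 ± 0.07 at 20 mM on the log2(FPKM + 1) scale (limma's moderated test over 9 libraries, two-sided, with Benjamini-Hochberg adjustment over 16570 genes, adjusted p = 0.00073 and 8.25e-05). This scale and test are used for all changes given here, and an RNA was called higher or lower, or is said to rise or fall, when the adjusted p was under 0.05. FGD5-AS1 was second, with 18.1, 21.2 and 19.9 FPKM in the control, 19.1, 15.4 and 17.2 FPKM at 10 mM and 15.3, 15.4 and 16.5 FPKM at 20 mM. It changed by -0.19 at 10 mM (adjusted p = 0.131) and fell by 0.31 at 20 mM (adjusted p = 0.0179), where each treated library lay below the lowest control. FGD5 itself, a guanine nucleotide exchange factor of endothelial cells, was close to 0 in every library.

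SERTAD4-AS1 was called lower at 20 mM (-0.59, adjusted p = 0.0164), although its groups overlapped: its control libraries ranged from 7.45 to 12.3 FPKM and its 20 mM libraries from 5.42 to 7.51 FPKM. DLGAP1-AS1 had a control mean of 6.64 ± 0.44 FPKM (SD over 3 libraries, as for all means given with an error) and rose to 8.43 ± 1.12 FPKM at 10 mM and 8.81 ± 0.36 FPKM at 20 mM. The sum over the 143 RNAs was 358.5 to 364.0 FPKM in the control, 395.2 to 404.1 FPKM at 10 mM and 401.3 to 412.1 FPKM at 20 mM. Without LINC00973 the sum was 336.1 to 341.2, 362.5 to 369.5 and 363.3 to 373.3 FPKM. Neither sum overlapped between the control and either dose, and both overlapped between the doses. The members were chosen by their level over all libraries, and 23 were under 1 FPKM in the control only and 4 at both doses only. The sums draw on those RNAs and are given as a description.

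**Figure D1:**
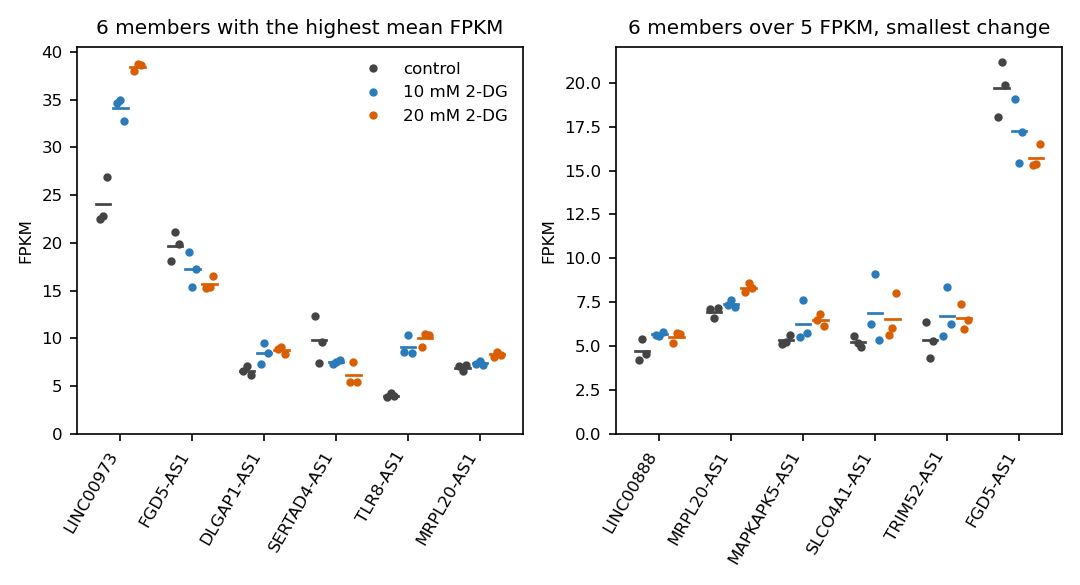
FPKM in each library (points) and group mean (short lines) of the 6 members with the highest mean level, left, and of the 6 members over 5 FPKM with the smallest change at 20 mM 2-DG, right, each axis starting at 0. LINC00973 stands at 22.5 to 26.9 FPKM in the control and above 32 FPKM in every treated library, and MRPL20-AS1 and FGD5-AS1 appear in both panels.

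Among members over 5 FPKM, the 6 with the smallest change at 20 mM included LINC00888 (0.19, adjusted p = 0.116), MAPKAPK5-AS1 (0.24, adjusted p = 0.107), SLCO4A1-AS1 (0.26, adjusted p = 0.25) and TRIM52-AS1 (0.27, adjusted p = 0.188), which did not pass the test. MRPL20-AS1 did pass it, with 7.11, 6.58 and 7.17 FPKM in the control and 8.11, 8.59 and 8.29 FPKM at 20 mM, a rise of 0.23 (adjusted p = 0.0172). The calls of MRPL20-AS1, FGD5-AS1 and SERTAD4-AS1 were each lost without one or another single library.

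At 10 mM 2-DG, 40 of the 143 RNAs were higher than in the control and 17 were lower. Of all 16570 genes tested, 12.1% were higher and 17.5% lower, and of the 10823 tested genes with a mean of at least 1 FPKM, the level that the rule asked of the members, 14.4% were higher and 21.3% lower. At 20 mM, 46 were higher and 27 lower, against 15.4% higher and 21.6% lower of all genes and 17.8% and 25.8% of genes at the level of the members. The members had 28% (10 mM) and 32.2% (20 mM) higher calls, above the background, and 11.9% and 18.9% lower calls, below it. The level of 1 FPKM over all libraries let in the 23 RNAs under it in the control and over it at both doses, so these shares draw on RNAs that passed through the groups where they were high and are given as a description. Their median change was 0.10 at 10 mM and 0.12 at 20 mM, beside -0.01 and -0.02 over all genes tested. The direction split moved with the scaling: at 20 mM, upper-quartile factors gave 55 higher and 17 lower members, and 3277 higher and 2780 lower genes in place of 2544 and 3582.

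At 20 mM, 9 of 35 LINC RNAs were higher and 7 lower (25.7% and 20%), and 37 of 108 antisense RNAs were higher and 20 lower (34.3% and 18.5%). The difference between the 2 kinds was not tested. Of the 52 members that share no exon base with another gene in GENCODE release 29, 17 were higher and 11 lower at 20 mM, and of the 91 that share some, 29 were higher and 16 lower. Only 65 of the 143 members gave whole reads at their GENCODE exon length, so the exons counted for the others may differ from those compared here. In a count chosen after the values were seen, 26 members shared no exon base and were counted at the GENCODE length, and 4 of these were higher and 5 lower at 20 mM. Both doses were compared with the same control libraries, so their calls are not independent. Calls were higher at both doses for 37 RNAs, at 20 mM only for 9 and at 10 mM only for 3. They were lower at both doses for 14, at 20 mM only for 13 and at 10 mM only for 3, and no RNA was called in opposite directions. Most changes were moderate on the log2(FPKM + 1) scale. The called members had a median absolute change of 0.57 at 20 mM, and 60 of the 73 changed by less than 1. The pseudocount of 1 shrinks changes at low levels. IGFL2-AS1, for example, had a ratio of means of 2.98 at 20 mM and a change of 0.66 on this scale. The study's methods ask for a change of more than 1 in log2 units and a p under 0.05, by DESeq2. Here these thresholds were set on limma's unadjusted p and its change on the log2(FPKM + 1) scale. They called 10 members higher and 3 lower at 20 mM, and 0.966% of all genes higher and 1.96% lower. All genes were not matched to the members in level, and some members met the level through the treated groups, so these counts are a description.

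**Figure D2:**
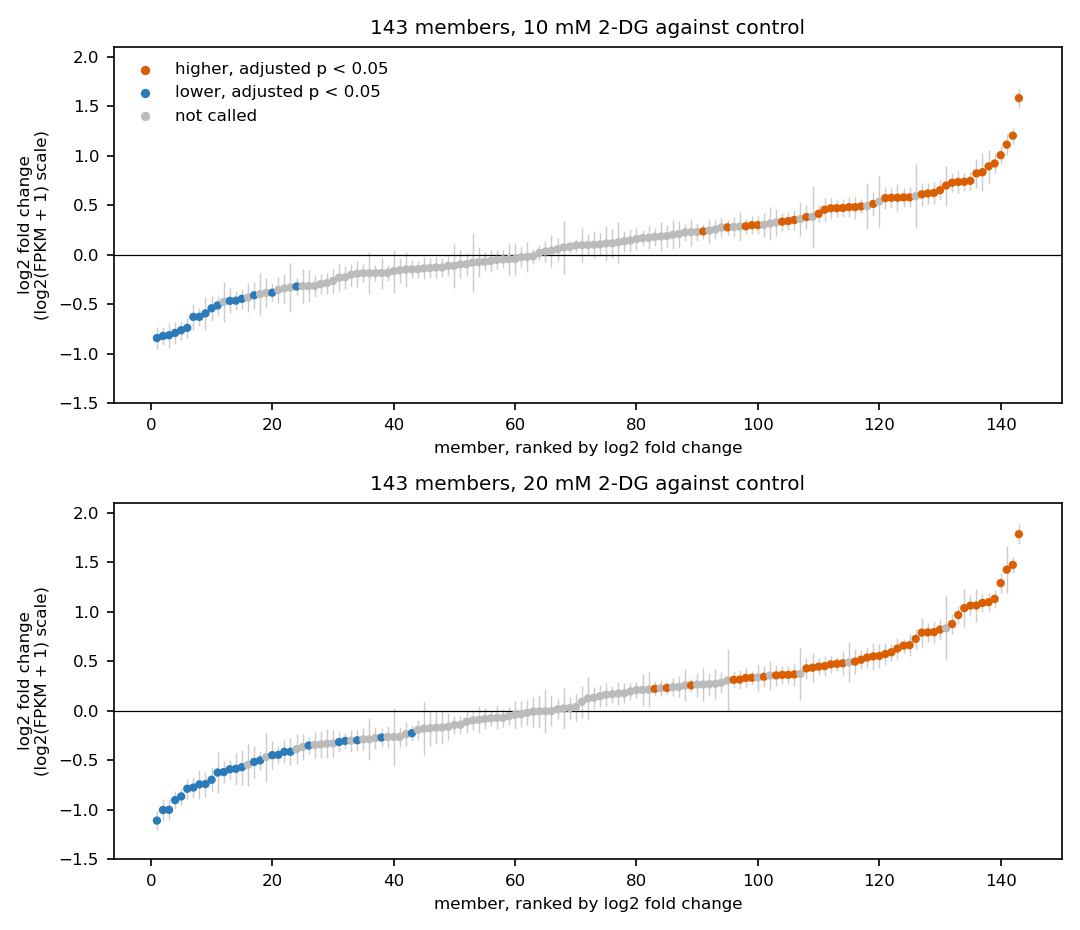
Log2 fold change of each of the 143 members against the control, on the log2(FPKM + 1) scale, ranked within each panel, at 10 mM 2-DG (top) and 20 mM 2-DG (bottom), with bars of 1 SE and colour for the limma call at an adjusted p under 0.05. There are 40 higher and 17 lower members in the top panel and 46 and 27 in the bottom one. At 20 mM the largest rise is 1.78 and the largest fall -1.11.

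The largest rise was that of LINC00622, a single-exon RNA at chr1:119597702-119599271 (GRCh38, minus strand). Its control libraries held 0.466, 0.382 and 0.353 FPKM, its 10 mM libraries 2.94, 3.21 and 3.45 FPKM and its 20 mM libraries 4.38, 3.81 and 3.33 FPKM. All treated libraries lay far above the controls, with a ratio of means of 7.99 at 10 mM and 9.59 at 20 mM (log2 fold change 1.78 ± 0.10 at 20 mM, adjusted p = 1.58e-06). LINC01134, a 5-exon lincRNA at chr1:3900372-3917225 (plus strand), held 0.561, 0.572 and 0.580 FPKM in the control, 2.74, 2.75 and 2.38 FPKM at 10 mM and 3.46, 3.36 and 3.28 FPKM at 20 mM. The 3 controls were nearly equal, and the mean was 5.89 times higher at 20 mM (1.47 ± 0.08, adjusted p = 1.15e-06). The pseudocount of 1 understates such ratios for RNAs this low. LINC00622 and LINC01134 were under 1 FPKM in every control library and over it in every treated one. They therefore met the level through the treated groups.

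SLC9A3-AS1 and TLR8-AS1 rose from higher levels. SLC9A3-AS1 held 2.05, 2.73 and 2.18 FPKM in the control, 6.48, 6.63 and 5.42 FPKM at 10 mM and 6.72, 7.50 and 7.06 FPKM at 20 mM (1.29 ± 0.10 at 20 mM, adjusted p = 1.23e-05). It lies across SLC9A3, the sodium/proton exchanger NHE3, whose own level was 0.198 FPKM in the control and 0.438 FPKM at 20 mM. TLR8-AS1 held 3.84, 4.29 and 3.93 FPKM in the control, 8.59, 10.3 and 8.45 FPKM at 10 mM and 9.14, 10.5 and 10.4 FPKM at 20 mM (1.13 ± 0.09, adjusted p = 1.22e-05). Its partner TLR8, an endosomal receptor for single-stranded RNA, stayed at means of 0.0262 to 0.0322 FPKM, too low to be tested, so the antisense RNA was seen almost without the gene it is named after. For ADIRF-AS1 the partner ADIRF was listed at 0 in all 9 libraries, which can be a failed estimate, while the antisense RNA rose from 0.694 ± 0.067 FPKM to 2.55 ± 0.41 FPKM at 20 mM (1.06, adjusted p = 4.34e-05). ADIRF and ADIRF-AS1 share 917 exon bases, whose reads may have been counted for either gene or neither. The control mean of ADIRF-AS1 was under 1 FPKM, so this RNA met the level through treated libraries.

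HIF1A-AS3, which lies across the gene of the oxygen-regulated transcription factor subunit HIF1A, rose at both doses. Its control libraries held 1.69, 2.46 and 2.91 FPKM, its 10 mM libraries 4.56, 4.10 and 6.27 FPKM and its 20 mM libraries 7.03, 6.33 and 4.34 FPKM (0.83 at 10 mM, adjusted p = 0.00993, and 1.04 at 20 mM, adjusted p = 0.00238). The groups were apart from the control despite a wide spread. PPP1R26-AS1 rose from 0.368 ± 0.029 FPKM to 1.29 ± 0.22 and 1.92 ± 0.23 FPKM, and TM4SF19-AS1 from 1.02 ± 0.07 FPKM to 2.84 ± 1.06 and 3.24 ± 0.47 FPKM. LINC02693 rose from 1.84 ± 0.22 FPKM to 3.77 ± 0.28 and 4.55 ± 0.16 FPKM, and LINC02009 from 3.01 ± 0.40 FPKM to 6.58 ± 0.58 and 6.35 ± 0.56 FPKM, in each case without overlap with the control. These RNAs were named for their large change at 20 mM, so the lack of overlap there is a description. PPP1R26-AS1 had a control mean under 1 FPKM and met the level through the treated groups.

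A pair of the strong risers rested on few reads. SPON1-AS1 was counted 2, 4 and 0 times in the control libraries, 7, 3 and 9 times at 10 mM and 26, 14 and 17 times at 20 mM, and a count of 0 still allows up to 3 reads. It was called higher at 20 mM (1.43 ± 0.24, adjusted p = 0.00122) but not at 10 mM (0.49, adjusted p = 0.15). More than 54% of its exon bases lie across exons of SPON1, the matrix protein spondin 1, which rose from 0.248 to 2.52 FPKM (1.49, adjusted p = 0.000162), and if strand was not used in counting, reads from one gene could not be told from the other. LINC01564 was counted 12, 23 and 20 times in the control, 59, 67 and 46 times at 10 mM and 104, 113 and 84 times at 20 mM, with no overlap between any 2 groups. It rose by 0.58 at 10 mM (adjusted p = 0.00139) and 1.10 at 20 mM (adjusted p = 1.85e-05) and shares no exon base with another gene in GENCODE, whose model of 566 bases is shorter than the 1585 bases counted. SPON1-AS1 and LINC01564 both had control means under 1 FPKM and met the level through treated libraries.

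**Figure D3:**
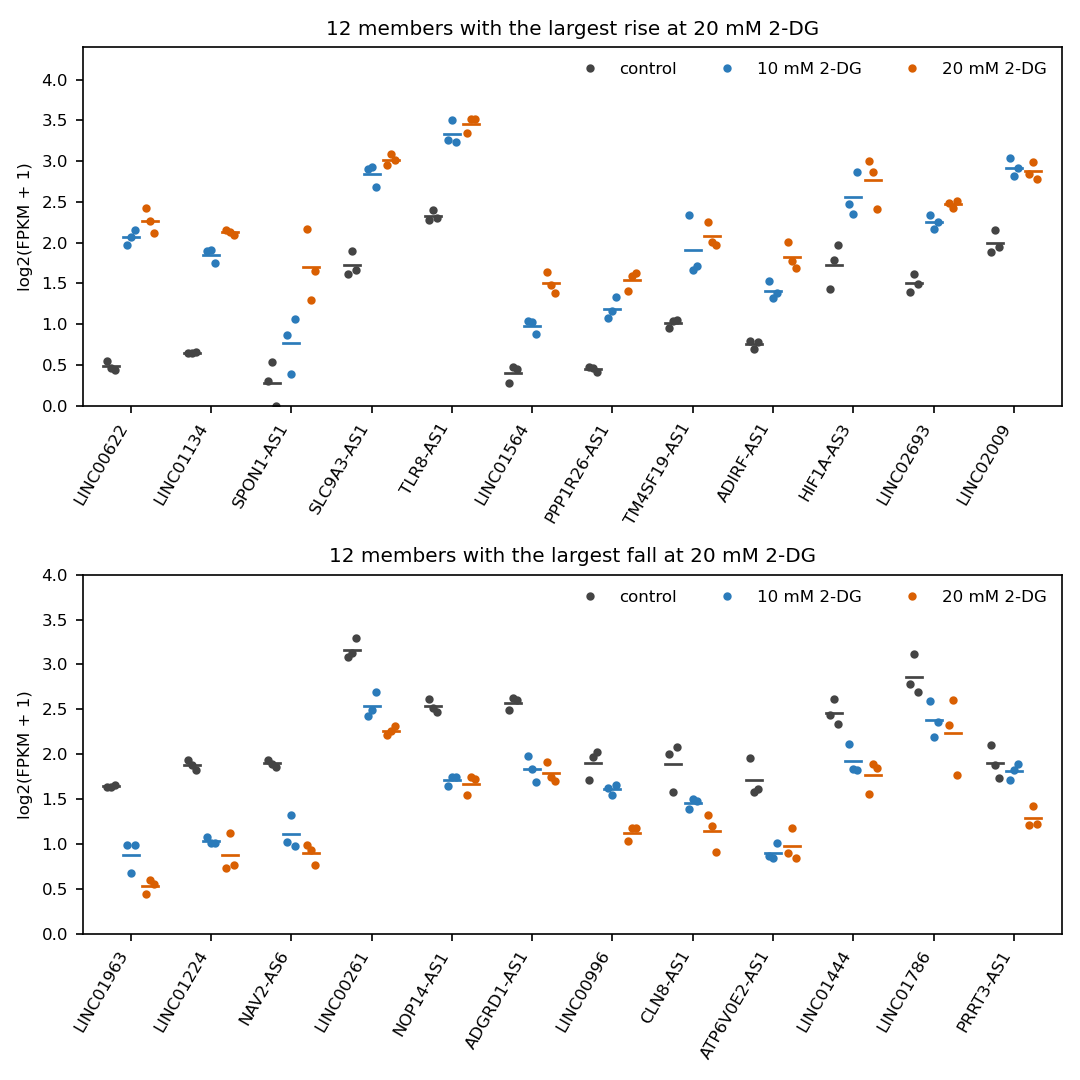
Level of the 12 members with the largest rise (top) and the 12 with the largest fall (bottom) at 20 mM 2-DG, as log2(FPKM + 1) in each of 3 control, 3 10 mM and 3 20 mM libraries (points) with group means (short lines). In the top panel every 20 mM library lies above every control library of its RNA, and in the bottom panel every one lies below. The RNAs were chosen by their change in this same comparison, so this separation follows in part from the choice.

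The largest fall was that of LINC01963, a single-exon lincRNA at chr2:216217045-216220192 (plus strand). Its control libraries held 2.11, 2.1 and 2.16 FPKM, its 10 mM libraries 0.976, 0.591 and 0.980 FPKM and its 20 mM libraries 0.359, 0.511 and 0.471 FPKM. The 3 groups did not overlap, and the control mean was 2.50 times that at 10 mM and 4.75 times that at 20 mM (-1.11 ± 0.10, adjusted p = 2.1e-05). LINC01963 was over 1 FPKM in every control library and under it in every treated one, so it met the level through the control. LINC01224 held 2.81, 2.67 and 2.54 FPKM in the control, 1.11, 1.02 and 1.01 FPKM at 10 mM and 0.657, 1.17 and 0.704 FPKM at 20 mM (-1.0 ± 0.11, adjusted p = 8.21e-05). NAV2-AS6, named after the cytoskeletal gene NAV2, fell from 2.72 ± 0.10 FPKM to 1.16 ± 0.29 and 0.862 ± 0.144 FPKM. Both were well under the control at either dose.

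LINC00261, an RNA known from endoderm, where it neighbours the transcription factor gene FOXA2, was the most abundant of the strong fallers. It held 7.47, 7.71 and 8.79 FPKM in the control, 4.36, 4.64 and 5.48 FPKM at 10 mM and 3.64, 3.77 and 3.98 FPKM at 20 mM (-0.90 ± 0.09, adjusted p = 6.32e-05). In GENCODE 86.1% of its exon bases, all on the same strand, also belong to AL121722.1, which is not analysed here, so that the reads of these 2 genes cannot be told apart. NOP14-AS1, antisense to a gene of ribosome assembly, fell from 4.8 ± 0.30 FPKM to 2.28 ± 0.12 and 2.18 ± 0.23 FPKM, and ADGRD1-AS1 from 4.96 ± 0.29 FPKM to 2.58 ± 0.36 and 2.46 ± 0.27 FPKM. ATP6V0E2-AS1 (-0.81 and -0.74) and LINC01444 (-0.54 and -0.70) also fell at both doses.

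In the fallers CLN8-AS1, LINC00996, LINC01786 and PRRT3-AS1 the test was passed at 20 mM only. CLN8-AS1 changed by -0.43 at 10 mM (adjusted p = 0.0504) and -0.74 at 20 mM (adjusted p = 0.00327), and LINC01786 by -0.48 (adjusted p = 0.107) and -0.62 (adjusted p = 0.0356), a call that 5 of the 9 libraries decide when left out singly. The difference between the doses was tested for itself, and no member passed: 0 were higher and 0 lower at 20 mM than at 10 mM by limma, as were 0% and 0% of all genes in the 2 directions, and limma-voom on the recovered reads also called 0. At an unadjusted p under 0.05 there were 19 of 143 members and 1140 of 16570 genes. The smallest adjusted p-values by limma belonged to LINC01564 (0.52 higher at 20 mM, adjusted p = 0.155), LINC00996 and PRRT3-AS1. LINC00996 held 2.07, 1.92 and 2.16 FPKM at 10 mM and 1.04, 1.26 and 1.25 FPKM at 20 mM (-0.48, adjusted p = 0.271). PRRT3-AS1 held 2.27, 2.55 and 2.70 FPKM at 10 mM, overlapping its control values of 2.33 to 3.30 FPKM, and 1.31, 1.68 and 1.33 FPKM at 20 mM (-0.52, adjusted p = 0.271). In none of the 3 RNAs did the difference pass the test. Their doses did not overlap, but they were chosen for the lowest p in this comparison, so this is a description.

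RefSeq promoter windows, from 250 bases before to 50 bases after the annotated start on GRCh38.p14, were matched by symbol for 108 of the 143 RNAs, and for 93 of these the RefSeq and GENCODE starts lay within 1000 bases of each other. The windows below belong to the 2 RNAs with the largest rise, to a pair of risers that hold an AP-1 element and an E-box, and to LINC00261, the only member whose window held an unfolded protein response element (UPRE). They are written 5′ to 3′ on the strand of the RNA, and capitals mark the motif matches.
LINC00622 (chr1:119599242-119599541, minus strand): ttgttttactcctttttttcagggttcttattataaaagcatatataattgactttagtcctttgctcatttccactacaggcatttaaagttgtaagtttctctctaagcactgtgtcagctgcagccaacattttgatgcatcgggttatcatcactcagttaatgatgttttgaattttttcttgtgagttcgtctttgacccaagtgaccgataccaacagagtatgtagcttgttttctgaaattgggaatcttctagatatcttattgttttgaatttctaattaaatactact
LINC01134 (chr1:3900154-3900453, plus strand): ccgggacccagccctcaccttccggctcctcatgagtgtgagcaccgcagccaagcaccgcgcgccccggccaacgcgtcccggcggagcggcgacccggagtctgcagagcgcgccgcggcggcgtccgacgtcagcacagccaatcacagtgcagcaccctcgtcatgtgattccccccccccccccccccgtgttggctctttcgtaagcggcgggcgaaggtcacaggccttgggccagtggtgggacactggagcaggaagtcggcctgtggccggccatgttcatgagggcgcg
LINC02009 (chr3:46423618-46423917, minus strand): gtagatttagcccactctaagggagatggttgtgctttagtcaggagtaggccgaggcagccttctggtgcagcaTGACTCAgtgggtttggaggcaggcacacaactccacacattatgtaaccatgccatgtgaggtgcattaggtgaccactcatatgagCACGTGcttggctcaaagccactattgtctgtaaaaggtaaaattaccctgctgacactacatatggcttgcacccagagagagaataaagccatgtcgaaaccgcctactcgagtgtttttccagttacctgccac
ADIRF-AS1 (chr10:86971191-86971490, minus strand): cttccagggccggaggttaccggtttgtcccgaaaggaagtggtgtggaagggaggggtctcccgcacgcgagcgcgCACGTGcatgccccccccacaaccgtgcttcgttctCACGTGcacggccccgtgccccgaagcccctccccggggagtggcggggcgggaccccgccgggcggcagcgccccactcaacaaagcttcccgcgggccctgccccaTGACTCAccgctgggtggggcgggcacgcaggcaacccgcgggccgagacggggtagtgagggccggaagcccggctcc
LINC00261 (chr20:22578593-22578892, minus strand): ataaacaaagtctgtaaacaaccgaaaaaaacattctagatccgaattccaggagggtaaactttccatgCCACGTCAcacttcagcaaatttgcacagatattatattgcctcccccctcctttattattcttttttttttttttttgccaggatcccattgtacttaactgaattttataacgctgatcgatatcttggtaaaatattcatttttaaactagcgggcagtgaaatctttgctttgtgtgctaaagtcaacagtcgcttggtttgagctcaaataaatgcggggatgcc

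Motifs bound by stress-responsive factors were searched on both strands: the C/EBP-ATF element CARE (TGATGNAAT), the UPRE (TGACGTGG), the endoplasmic reticulum stress element ERSE (CCAAT and CCACG with 9 bases between), the cAMP response element CRE (TGACGTCA), the AP-1 element (TGANTCA) and the E-box (CACGTG). No window of a member held CARE or ERSE, which 0.991% and 0.0769% of the 35116 RefSeq windows held. LINC02009 held an AP-1 element that begins 175 bases before the start and an E-box 87 bases before it, and ADIRF-AS1 an AP-1 element 29 bases before it and E-boxes at 173 and 137 bases. The UPRE match of LINC00261 begins 180 bases before the start on the opposite strand. An AP-1 element stood in 6 of 34 windows of RNAs higher at 20 mM, 1 of 19 lower and 5 of 55 not called, beside 7.71% of all windows. An E-box stood in 4 of 34, 0 of 19 and 11 of 55, beside 7.26%, and a CRE in 2, 0 and 2, beside 1.85%. The windows of the 2 largest risers held none of these motifs, and the median GC content was 63.8% in the members' windows and 58.7% in all windows. A match is a match of letters and does not show that a factor binds there.

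The 108 antisense RNAs were set beside the genes they are named after. In GENCODE, 62 pairs were head to head, with the nearest starts on opposite strands at most 1000 bases apart (median 137), 42 had overlapping spans and 4 lay apart. Any annotated transcript start of either gene counted. Some head to head antisense RNAs, such as CLN8-AS1 and NAV2-AS6, therefore lie inside the partner, away from its outermost start. In 97 pairs both genes were tested. At 20 mM, 20 of these partners were higher and 24 lower (20.6% and 24.7%), near the 17.8% and 25.8% of all genes at 1 FPKM or more. The antisense RNA and its partner were both called in 25 pairs, in the same direction in 15 and in opposite directions in 10. Beside 16 higher and 10 lower antisense RNAs the partner was tested and not called. Across the 97 pairs the changes of the 2 genes had a Pearson r of 0.331 and a Spearman rho of 0.223. Among the 60 head to head pairs r was 0.223, and among the 34 with overlapping spans it was 0.481. These correlations run over pairs measured in the same 9 libraries, and exons are shared within 78 of the 108 pairs, so they describe the pairs and carry no test. The strand setting of the counting is not given in the sources used here, so over shared exon bases the reads of a gene and of its antisense RNA cannot be told apart.

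**Figure D4:**
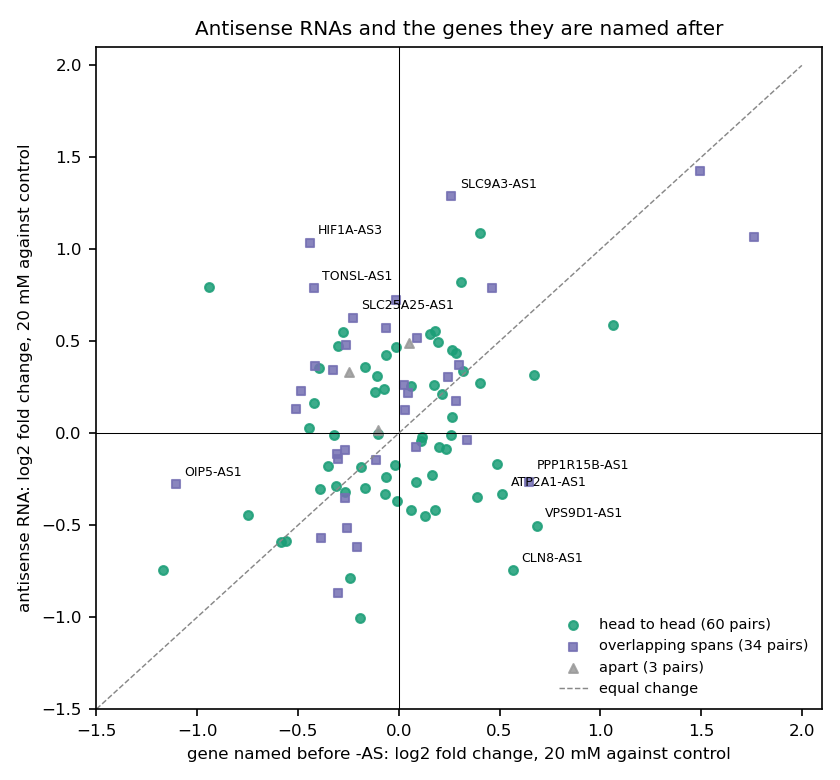
Log2 fold change of each antisense RNA at 20 mM 2-DG against control (vertical) beside that of the gene named before -AS (horizontal), for the 97 pairs with both genes tested, on the log2(FPKM + 1) scale, with the arrangement of the pair as symbol and the line of equal change dashed. The 9 labelled pairs are among those with the largest change of the ratio, and HIF1A-AS3 and TONSL-AS1 lie in the upper left, where the antisense RNA rose and the partner fell.

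Whether the pair moved apart was tested on the difference between the log2(FPKM + 1) of the antisense RNA and that of its partner (limma over all 411 antisense pairs with both genes tested, adjusted over these pairs). At 10 mM the ratio rose in 25 of the 97 member pairs and fell in 11, and of all 411 pairs it rose in 14.4% and fell in 9.49%. At 20 mM it rose in 29 and fell in 14, beside 19.7% and 13.1%. The 411 pairs include these 97, and the antisense RNAs of the others lay under 1 FPKM, where the pseudocount of 1 flattens the ratio. The pairs are thus not matched in level. Some members met the level through the treated groups, so the counts are a description. The changed ratios at 20 mM were found in both arrangements, in 26 of 60 head to head pairs and 16 of 34 with overlapping spans. Of the 25 pairs that share no exon base with each other in GENCODE, 13 had a changed ratio at 20 mM. Of the 108 partners, 30 had means under 1 FPKM. There the pseudocount of 1 flattens the partner's change, and the ratio leans on the antisense RNA.

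HIF1A-AS3 moved apart from HIF1A. They share no exon base in GENCODE release 29, but HIF1A-AS3 gave whole reads at 1852 bases and its GENCODE exons span 533, so the exons counted were not those compared. HIF1A held 71.8, 89.2 and 96.4 FPKM in the control and 60.5, 58.6 and 68.5 FPKM at 20 mM and fell by 0.44 (adjusted p = 0.038), so the ratio rose by 1.48 ± 0.20 (adjusted p = 0.000389). TONSL, a replication fork repair factor, fell from 16.6 ± 1.2 to 12.1 ± 0.5 FPKM while TONSL-AS1 rose from 1.19 ± 0.06 to 2.78 ± 0.27 FPKM, and the ratio rose by 1.21 (adjusted p = 0.000389). TONSL-AS1 rests on 17 to 50 reads per library. At 10 mM its libraries held 1.2, 2.23 and 1.16 FPKM, 1 of them apart from the other two.

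In CLN8-AS1 and VPS9D1-AS1, both head to head, the antisense RNA fell and the partner rose. CLN8, an endoplasmic reticulum protein mutated in a neuronal ceroid lipofuscinosis, held 1.31, 1.53 and 1.24 FPKM in the control and 2.42, 2.55 and 2.50 FPKM at 20 mM, while CLN8-AS1 held 3.01, 1.99 and 3.23 FPKM and then 1.49, 1.30 and 0.876 FPKM. The ratio fell by 1.31 ± 0.19 (adjusted p = 0.000544), and the nearest GENCODE transcript starts of the pair lie 150 bases apart. The outermost starts are further apart, at base 1755778 for CLN8 and 1764502 for CLN8-AS1, which lies inside CLN8. In GENCODE the pair shares no exon base, but CLN8-AS1 was counted at a length of 2313 bases, not the 1322 bases of that model. VPS9D1 rose from 4.65 ± 0.55 to 8.05 ± 0.47 FPKM and VPS9D1-AS1 fell from 4.04 ± 0.36 to 2.56 ± 0.19 FPKM, a ratio change of -1.19 (adjusted p = 2.06e-05) in a pair that shares 518 exon bases.

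In other pairs only one side passed its own test. OIP5, a protein needed to load the centromeric histone, fell from 3.07 ± 0.58 to 0.880 ± 0.041 FPKM (-1.11, adjusted p = 5.72e-05). OIP5-AS1, also called Cyrano and known for directing the decay of miR-7, held 2.62, 3.01 and 3.37 FPKM in the control and 2.24, 2.39 and 2.26 FPKM at 20 mM (-0.28, adjusted p = 0.0762), and the ratio rose by 0.83 (adjusted p = 0.00261). PPP1R15B, which brings the phosphatase to eIF2α, rose from 5.68 ± 0.61 to 9.41 ± 0.13 FPKM, while PPP1R15B-AS1 (-0.26, adjusted p = 0.524) did not pass, and the ratio fell by 0.91. ATP2A1, a calcium pump of the reticulum, rose (0.51, adjusted p = 0.00136) beside an ATP2A1-AS1 at -0.33 (adjusted p = 0.0797). SLC25A25-AS1 rose (0.63, adjusted p = 0.00113) beside a mitochondrial carrier gene SLC25A25 at -0.23 (adjusted p = 0.0661). SLC9A3-AS1 rose more than SLC9A3 on the log2(FPKM + 1) scale (ratio 1.03, adjusted p = 7.71e-05). SLC9A3 lay under 1 FPKM, where the pseudocount of 1 flattens its change, so part of this ratio comes from the scale.

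**Figure D5:**
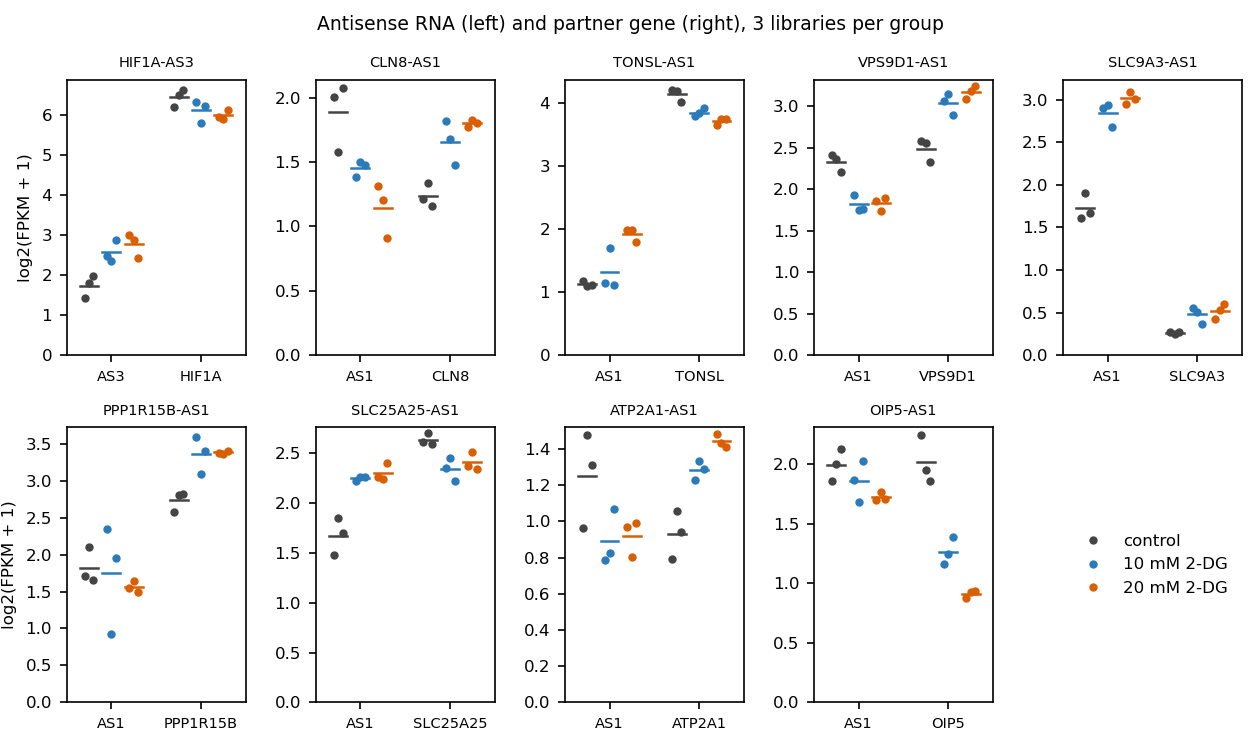
Level as log2(FPKM + 1) of the antisense RNA (left in each panel) and of its partner gene (right) in every library of 9 pairs with a large change of the ratio at 20 mM 2-DG, with group means as short lines and each axis starting at 0. In the HIF1A panel the antisense points go up from the control to either dose, and in the CLN8 and VPS9D1 panels the antisense points go down while the partner's go up.

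Other pairs moved in the same direction. SPON1-AS1 and SPON1 both rose and their ratio changed by -0.07 (adjusted p = 0.882). TM4SF19, a tetraspan membrane protein gene, rose from 2.81 ± 0.64 to 11.8 ± 0.9 FPKM, more than TM4SF19-AS1. Their ratio fell by 0.70 (adjusted p = 0.0128), so by this test the pair moved apart, although both rose. They share 539 exon bases. SERTAD4-AS1 and SERTAD4 both were called lower (-0.59 and -0.56), with a ratio change of -0.03 (adjusted p = 0.935). ATP6V0E2, a subunit gene of the vacuolar proton pump, fell by 1.17 and ATP6V0E2-AS1 by 0.74. Both pairs of SERTAD4 and ATP6V0E2 are head to head and share 174 and 864 exon bases.

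Genes of the pathways that remove long noncoding RNAs moved in both directions, as genes in general did. Of genes with a mean of at least 1 FPKM, 14.4% were higher and 21.3% lower at 10 mM, and 17.8% and 25.8% at 20 mM. Of 14 NMD genes, 4 were higher at 20 mM, among them UPF3A (0.29), SMG5 (0.31) and SMG9 (0.24), and RBM8A (-0.68) and MAGOH (-0.29), a pair of exon junction proteins, were lower. The median over the list was 0.19, beside -0.02 over all genes, and 2 were higher and 1 lower at 10 mM. Of 18 genes of the nuclear exosome and its adaptors, EXOSC2 (-0.55), EXOSC7 (-0.34) and EXOSC9 (-1.12) were lower at 20 mM, the same 3 as at 10 mM, and EXOSC6 (0.31) and the adaptor ZCCHC8 (0.27) were higher, with a median of -0.04. EXOSC9, a ring subunit, went from 8.91 FPKM in the control to 4.61 FPKM at 10 mM and 3.54 FPKM at 20 mM, while the catalytic subunits EXOSC10 (-0.12, adjusted p = 0.136) and DIS3 (0.03, adjusted p = 0.877) did not pass. The part of these genes in the levels of the members was not tested.

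Of 21 tested long noncoding RNAs with names of another form, 4 were higher and 1 lower at both doses, with a median of -0.02 at 20 mM. At 20 mM 19% of them were higher and 4.76% lower. Of all genes tested 15.4% were higher and 21.6% lower, and of genes at 1 FPKM or more 17.8% and 25.8%. Several of the 21, such as FTX, DLEU2 and KCNQ1OT1, had means under 1 FPKM. LUCAT1, a stress-induced RNA, went from 1.47 to 3.10 FPKM (0.74, adjusted p = 0.00318), PVT1 from 0.707 to 1.31 FPKM, LINC-PINT from 0.167 to 0.439 FPKM and MIR22HG, the host transcript of miR-22, from 12 to 15.8 FPKM. NORAD, which binds the PUMILIO proteins, fell from 58.1 to 42.4 FPKM (-0.44, adjusted p = 0.0116). MALAT1 (18.6 and 15.3 FPKM) and NEAT1 (18.5 and 18.2 FPKM), the RNAs of nuclear speckles and paraspeckles, did not pass the test.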

How the data were processed

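RNA of MDA-MB-231 cells for 9 libraries was prepared with a SMARTER mRNA-Seq kit and sequenced on an Illumina NovaSeq instrument. The authors deposited 1 table of normalized values per library. The deposited values are FPKM as read from the values themselves, since neither labels nor headers name the unit. The submitters' processing notes name the build GRCh38, and the aligner, counter, annotation and strand setting are not given in the sources used here. Reads were recovered as whole multiples of the value of 1 read with GENCODE release 29 exon lengths (16144 of 32806 genes at that length, the others at a length searched for, within 0.002 of a whole number) and served for the filter and for limma-voom. They are not the authors' counts.

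Genes were kept with 10 or more reads, scaled to the median depth, in 3 libraries and 15 reads over all. limma 3.58.1 in R 4.3.3 was fitted with a trend to log2(FPKM + 1) of all 9 libraries, without a block. Between replicates the reads differed by 4.66 to 56.7 times the sampling variance, so no library was taken for a copy. The steps were tested on simulated data. The members and gene lists were chosen with earlier results of these data known. Named RNAs are, per direction, the 12 members with the largest called change at 20 mM, the 6 most abundant, the 10 pairs with the largest change of ratio, the 3 with the lowest p between the doses, the 6 over 5 FPKM that moved least, 3 on either side of the level and list genes. Scaling, pseudocount, filter, tool, threshold, block, libraries and the definition of members and pairs were varied. Of the RNAs and list genes named by this rule, 2 are not reported here. Library totals were 30974968 to 40843638.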

Additional observations from a re-analysis of the deposited data

How the results depend on the processing

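No named result changed direction in 679 values over 40 named RNAs, and 651 kept their side of the threshold. The study's thresholds were set here on limma's unadjusted p and its change on the log2(FPKM + 1) scale, not on DESeq2. They gave 4 members higher and 0 lower at 10 mM, and 10 and 3 at 20 mM. With a minimum of 2 FPKM, 20 were higher and 7 lower at 10 mM and 21 and 12 at 20 mM, and among members that share no exon base 17 and 6 at 10 mM and 17 and 11 at 20 mM, of fewer RNAs. With a minimum of 0.5 FPKM, which takes in 255 RNAs, 58 were higher and 26 lower at 10 mM and 68 and 40 at 20 mM, so the higher share was 22.7% and 26.7%. Of the 26 that share no exon base and were counted at the GENCODE length, an alternative chosen after seeing the data, 5 were higher and 4 lower at 10 mM and 4 and 5 at 20 mM. At 20 mM, 17 members were lower with upper-quartile factors and 17 when all genes above 0 were tested. Changed ratios numbered 21 at 10 mM with a pseudocount of 0.1, and 12 at 10 mM and 13 at 20 mM in pairs that share no exon base, of 25 such pairs.

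Leaving out 1 library gave 32 to 40 higher and 16 to 19 lower members at 10 mM, 39 to 49 and 18 to 29 at 20 mM, and 25 to 35 and 34 to 46 changed ratios. Between the doses there were 0 to 1 changed ratios: without 10 mM 2-DG replicate 2 that of TONSL-AS1 passed (0.93, limma adjusted p = 0.0101). SERTAD4-AS1 was not called without control replicate 1 (-0.42), 20 mM replicate 1 (-0.52) or replicate 3 (-0.52), FGD5-AS1 without control replicate 2 (-0.25) or 3 (-0.30) or 20 mM replicate 1 or 2 (both -0.29), MRPL20-AS1 without control replicate 2 (0.20) or 20 mM replicate 2 (0.21) or 3 (0.23), and LINC01786 without control replicate 1 (-0.67) or 2 (-0.50), 10 mM replicate 3 (-0.62) or 20 mM replicate 1 (-0.67) or 3 (-0.39). ATP2A1-AS1 passed without control replicate 1 (-0.47), OIP5-AS1 without 10 mM replicate 2 (-0.28), LINC00888 without control replicate 2 (0.28) and MAPKAPK5-AS1 without 10 mM replicate 2 (0.24). With upper-quartile factors LINC01786 and FGD5-AS1 were not called and LINC00888 and MAPKAPK5-AS1 were, and with limma-voom MRPL20-AS1 was not called and OIP5-AS1 was. The cause was not tested.

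Replicate numbers did not pair the samples: deviations from the group means of same-numbered libraries had correlations of -0.41 to 0.29 in 9 pairs. Differently numbered libraries of different groups had -0.23 to 0.52, highest for control replicate 1 with 10 mM replicate 2. Some libraries thus shared deviations across groups that neither the main fit nor a block by replicate number models. With the replicate number as a block, 37 members were higher and 18 lower at 10 mM, 45 and 24 at 20 mM, and 24 and 36 ratios changed. Depth limits the 6 members with under 10 reads in some library.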
